A study of Mus musculus with 24 samples.

Results

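Transcripts of the machinery that carries cargo toward microtubule minus ends were set against those of the tubulin genes in mouse fibroblasts whose proteasome was inhibited. The set was a hand-made list of 35 gene symbols, all of which were found among the 19880 genes of the deposited table, whose unit is TPM, a transcript level per gene length scaled to a fixed sum per library. It held Hdac6, 9 dynein subunit genes, 6 dynactin subunit genes, 8 adaptor or regulator genes, and 4 alpha-, 6 beta- and 1 gamma-tubulin gene. After a filter of at least 1 TPM in at least 3 libraries, 33 members could be tested, 22 for transport and 11 tubulins. Hook1 and Bicd1 stayed under 1 TPM in every library and were not tested.

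The fibroblasts came from the tails of male mice of strain C57/Bl6 by the labels (C57BL/6J in the study's methods), 4 weeks old, and a shared pool of cells was the source of the cultures. Proliferating fibroblasts were sparse cultures, senescent fibroblasts had been passaged until they stopped expanding, quiescent fibroblasts were held at confluence, and immortalized fibroblasts carried retroviral SV40 large T antigen, as a transduced culture that is not described as a clone. Cultures of each cell-state received either 10 µM MG132, a proteasome inhibitor, or its vehicle, 0.1% DMSO, for 8 h. Poly(A) RNA of 3 libraries was sequenced for each of the 8 groups, 24 libraries in all. The labels do not tie the libraries of a group to separate mice, so a p-value here covers only the variation among libraries, which may be technical. In bulk RNA, fewer cells of a type and less RNA per cell cannot be told apart.

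When misfolded proteins outrun the proteasome, cells can gather them at the centrosome in an inclusion called the aggresome. HDAC6, a cytoplasmic deacetylase, binds polyubiquitin and the dynein motor; dynein, held to its cargo by the dynactin complex and by adaptors, walks along microtubules toward the minus ends that gamma-tubulin anchors. Microtubules are polymers of alpha- and beta-tubulin dimers, and cells shorten the life of tubulin mRNAs when free dimers accumulate, a control that reads the first residues of the growing tubulin chain on the ribosome.

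Levels are given as scaled TPM, which is the deposited TPM of a library divided by a size factor taken from all genes, and log2 fold changes are on the scale of log2(scaled TPM + 1). This scaling holds the median change of all genes near 0, so rises and falls are relative to other genes and not per cell. Adjusted p-values are from limma with Benjamini-Hochberg adjustment over all 13489 genes tested, and a gene was called under 0.05. Fibroblast markers summed to 14320 to 35867 TPM per library. Markers of other cell types were low, with keratinocyte markers at 2.29 to 9.71 TPM, endothelial markers at up to 7.48 TPM, and leukocyte markers at 3.57 to 66.8 TPM, of which Csf1r alone reached 66.3 TPM. Of 6 muscle markers 2 were found, and these summed to 28.6 to 540.4 TPM, of which Acta1 alone reached 540.1 TPM. Melanocyte markers summed to 1.38 to 6.70, cartilage and bone markers to 0.106 to 1.85, and Schwann cell markers to 2.86 to 11.2 TPM. Some markers moved with MG132: Csf1r rose by 1.92, 2.15, 1.96 and 1.75 on the log2 scale in proliferating, senescent, quiescent and immortalized fibroblasts, Kdr rose by 2.08 in proliferating and 2.63 in immortalized fibroblasts, and of 10 fibroblast markers 1 was called higher and 2 lower for proliferating, 5 lower for senescent, 7 lower for quiescent, and 3 higher and 1 lower for immortalized fibroblasts, from Col3a1 (-2.65, quiescent) to Fn1 (1.48, immortalized). Their part in the results was not tested. Proliferating DMSO replicate 3 stood apart from its group with a heat shock gene sum of 11132 TPM against 3713 and 3616 TPM and a cell cycle marker sum of 71.2 TPM against 179 and 194 TPM. Immortalized DMSO replicate 2 held 944 TPM of cell cycle markers against 271 and 221 TPM in the other libraries of its group. Results that rest on either of these libraries are given with and without it. Other libraries also differed from their groups. Immortalized MG132 replicate 2 had a heat shock sum of 43694 against 93988 and 87323 TPM and a cell cycle sum of 247 against 131 and 120 TPM. Cell cycle sums were 48.5 against 17.9 and 13.5 TPM in senescent DMSO replicate 1. They were 109 against 34.6 and 47.0 TPM in quiescent MG132 replicate 1.

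The tubulin genes are close copies, which bears on how their reads were divided. The first 30 coding bases of the printed members are shown 5′ to 3′ from the GENCODE transcripts of GRCm38, with the first 4 codons in capitals. In the alpha- and beta-tubulins these encode the residues named above for mRNA control, and Tubg1 is shown beside them with a different start.
Tuba1a: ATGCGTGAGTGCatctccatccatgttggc
Tuba1b: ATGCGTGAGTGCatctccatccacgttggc
Tuba1c: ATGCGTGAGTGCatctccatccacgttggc
Tuba4a: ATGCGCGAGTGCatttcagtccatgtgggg
Tubb2a: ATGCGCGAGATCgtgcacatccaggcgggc
Tubb2b: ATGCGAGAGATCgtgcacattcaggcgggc
Tubb3: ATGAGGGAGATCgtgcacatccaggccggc
Tubb4b: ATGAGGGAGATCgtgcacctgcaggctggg
Tubb5: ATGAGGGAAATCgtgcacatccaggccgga
Tubg1: ATGCCGAGAGAAatcatcaccctacagttg
Tuba1b and Tuba1c differed at 0 of these 30 bases, Tuba1a differed from them at 1, and Tuba4a differed from Tuba1a at 6. Tuba1a, Tuba1b and Tuba1c lie on chromosome 15 (GRCm38) at 98949837 to 98953703, 98931425 to 98934565 and 99029891 to 99038110. The share of a gene's 31-base words that other genes also hold was 78.6% for Tuba1a, 78.7% for Tuba1b, 55.3% for Tuba1c and 38.4% for Tuba4a. Nearly all of the last is shared with Stk16, a protein kinase gene that is not a tubulin (35.6% of all Tuba4a words). It was 56.4% for Tubb2a, 43.1% for Tubb2b and 53.0% for Tubb4b, against 3.21% for Tubb3, 3.50% for Tubb5 and 3.24% for Tubb6. Levels of the first set depend on how the read counter split shared reads and are less certain than those of Tubb3, Tubb5 and Tubb6.

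Members of both groups, transport genes and tubulins, rose and fell under proteasome inhibition. Their numbers stand beside the share of all genes that passed the same test, which was large. In proliferating fibroblasts 9 of 33 members rose and 5 fell, where 25.2% of all genes rose and 24.8% fell. In senescent fibroblasts 8 rose and 6 fell, against 22.7% and 23.4% of all genes. The 8 include Dync1i1, which passed the filter only through the senescent MG132 libraries and had to differ; it is also in the counts of differences and of the contrast given below that involve senescent fibroblasts. In quiescent fibroblasts 12 rose and 4 fell, against 25.3% and 26.9%. In immortalized fibroblasts 6 rose and 11 fell, against 26.6% of all genes in each direction. Some counts leaned on 1 library: 3 members fell in proliferating fibroblasts without DMSO replicate 2, and in senescent fibroblasts 5 rose without MG132 replicate 1, while 3 fell without DMSO replicate 2 and 2 without MG132 replicate 2 or 3. The median log2 fold change of the members was -0.02, 0.05, 0.10 and -0.02 in the same order, where that of all genes was -0.02, -0.03, -0.02 and 0.01.

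Rises and falls among the 11 tubulins numbered 3 and 1 for proliferating, 2 and 4 for senescent, 7 and 1 for quiescent, and 1 and 4 for immortalized cultures. Those among the 22 transport genes numbered 6 and 4, 6 and 2, 5 and 3, and 5 and 7 in that order. Members that rose in all 4 cell-states were Dctn3, Ndel1 and Tubb3, 3 of 33, where 8.15% of all genes did (9.58% at an unadjusted p under 0.05). With limma, 0 members fell in all 4 cell-states, where 7.6% of all genes did, and 1, Nde1, did so at an unadjusted p under 0.05, where 9.04% did. Dynll2, Dctn4 and Hook2 were called in none of them. Hdac6, Dync1li2, Bicd2, Tubb2b and Tubb4b rose in at least 1 cell-state and fell in another. The shares of all genes that did either were not counted, so these members are only listed.

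**Figure D1:**
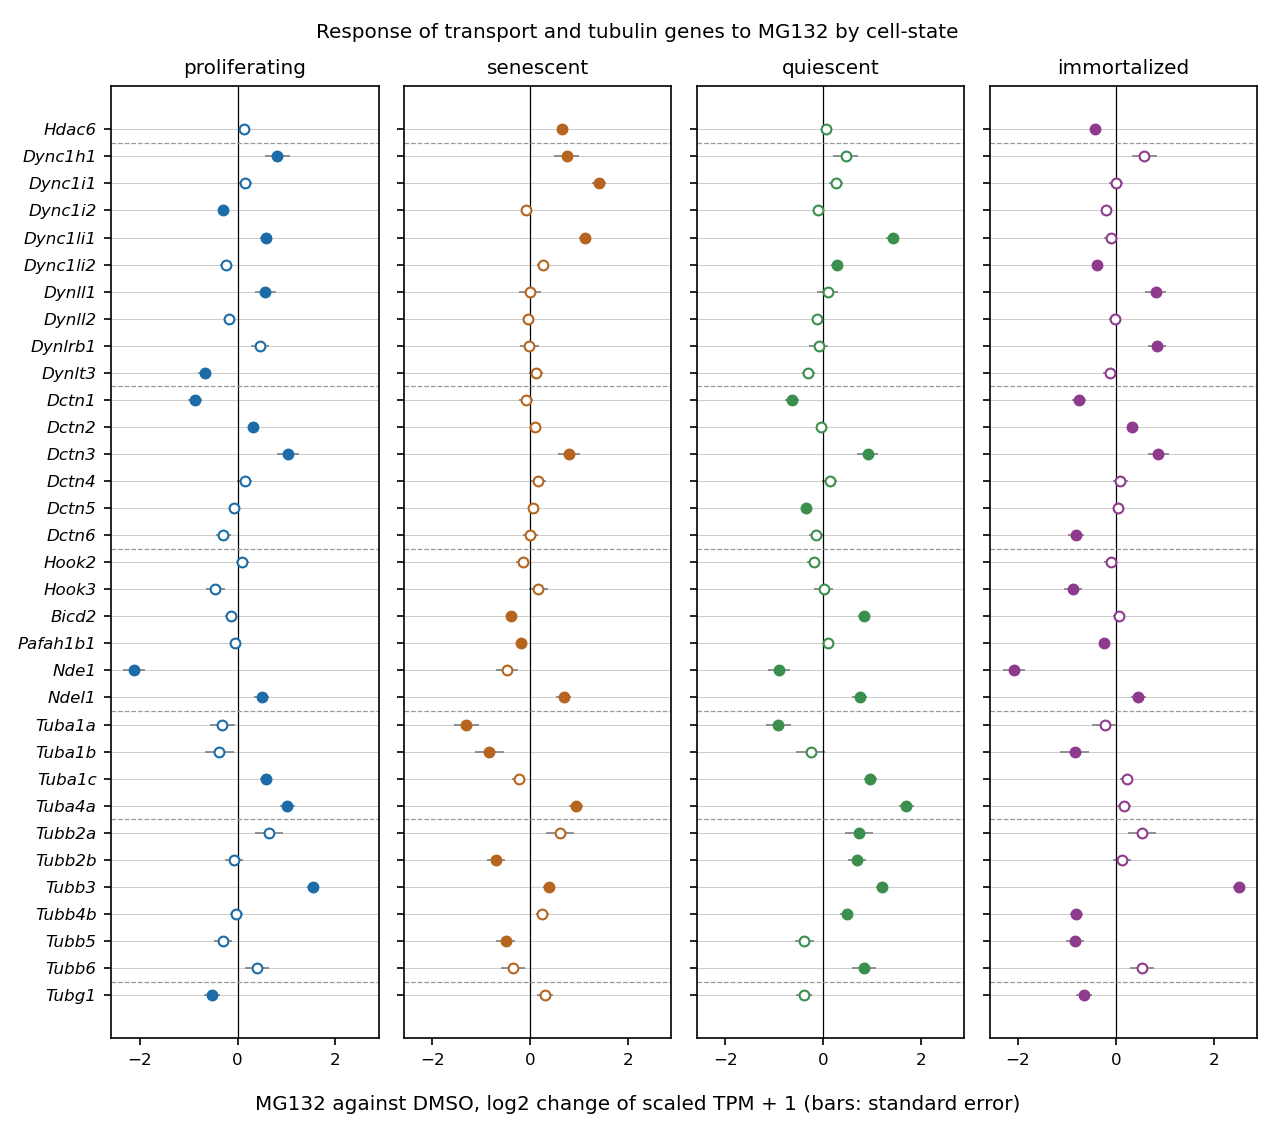
Log2 fold change of MG132 over DMSO (scaled TPM + 1) for each tested member in the 4 cell-states, ordered by role, with bars of 1 SE; filled points are called and open points are not. Tubb3 lies to the right of 0 in every cell-state and Nde1 to the left, and Tuba4a and Dync1li1 have filled points to the right of 0 in all cell-states but the immortalized one, where they lie near 0 and are open.

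Hdac6, which links polyubiquitinated cargo to dynein, moved in opposite directions in senescent and immortalized fibroblasts. It lies on chromosome X (GRCm38, 7930120 to 7947889, minus strand). In senescent fibroblasts it stood at 8.85, 10.8 and 10.6 scaled TPM under DMSO and at 15.4, 17.9 and 15.8 under MG132. In immortalized fibroblasts it stood at 10.3, 9.62 and 9.54 under DMSO and at 7.13, 7.45 and 6.59 under MG132. Neither pair of groups overlapped, and the direction of all 3 MG132 libraries was up in senescent and down in immortalized cells. The log2 fold change was 0.65 (SE 0.11, adjusted p = 5.9e-05) in the former and -0.43 (adjusted p = 0.0023) in the latter. The difference between these responses was -1.08 (adjusted p = 1.5e-05).

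Proliferating fibroblasts held 7.91, 7.41 and 6.54 scaled TPM of Hdac6 under DMSO and 7.92, 8.80 and 7.47 under MG132. Quiescent fibroblasts held 8.44, 7.20 and 7.96 under DMSO and 7.6, 7.96 and 9.16 under MG132. The treatments overlapped in both cell-states, and neither change was called (0.13, adjusted p = 0.33, and 0.06, adjusted p = 0.67). In proliferating fibroblasts the sign depended on scaling, since TPM as deposited gave a log2 fold change of -0.40 (adjusted p = 0.016). Under DMSO, Hdac6 was higher in senescent than in proliferating fibroblasts by 0.42 on the log2 scale (adjusted p = 0.0043) and in immortalized than in proliferating by 0.39 (adjusted p = 0.0087).

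Among the dynein genes, the light intermediate chain Dync1li1, which couples the motor to its adaptors, was called higher in 3 cell-states. Dync1li1 lies on chromosome 9 (GRCm38, 114688790 to 114724302, plus strand). In quiescent fibroblasts it stood at 58.3, 50.1 and 56.8 scaled TPM under DMSO and at 138, 165 and 145 under MG132. In senescent fibroblasts it stood at 72.4, 82.1 and 92.2 under DMSO and at 179, 179 and 177 under MG132. Each MG132 library was far above every DMSO library, and the log2 fold changes were 1.42 (SE 0.13, adjusted p = 4.1e-08) and 1.12 (adjusted p = 8.7e-07). In immortalized fibroblasts, by contrast, 105, 85.8 and 112 scaled TPM under DMSO overlapped with 97.6, 82.0 and 100.1 under MG132 (log2 fold change -0.11, adjusted p = 0.50). Proliferating fibroblasts went from 100.0, 100.2 and 134 to 158, 169.7 and 170.2 scaled TPM, with no overlap and a log2 fold change of 0.58 (adjusted p = 0.00074) that became -0.01 with TPM as deposited.

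Dync1h1, the heavy chain that carries the motor domain, had higher mean scaled TPM under MG132 in every cell-state, though in immortalized fibroblasts the log2 fold change was -0.18 with TPM as deposited. Proliferating fibroblasts held 52.9, 44.7 and 24.1 scaled TPM under DMSO and 72.1, 66.7 and 66.9 under MG132. Senescent fibroblasts held 33.0, 51.3 and 64.0 under DMSO and 111, 67.9 and 70.1 under MG132. Neither pair overlapped, but the DMSO libraries were spread widely. The log2 fold changes were 0.81 (SE 0.26, adjusted p = 0.012) and 0.75 (adjusted p = 0.021). Both calls rested on single libraries: without proliferating DMSO replicate 3 the first was 0.48 (adjusted p = 0.095), and without senescent DMSO replicate 1 or MG132 replicate 1 the second was 0.49 (adjusted p = 0.14) or 0.52 (adjusted p = 0.13). With TPM as deposited the first was 0.22.

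Quiescent fibroblasts held 33.4, 28.1 and 37.8 scaled TPM of Dync1h1 under DMSO and 46.3, 51.0 and 40.6 under MG132. Immortalized fibroblasts held 38.5, 53.6 and 41.9 under DMSO and 81.6, 57.5 and 63.3 under MG132. The groups did not overlap in either cell-state, yet the changes of 0.47 (adjusted p = 0.13) and 0.58 (adjusted p = 0.062) were not called.

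Of the other dynein subunits, Dync1i1, an intermediate chain best known from neurons, was at 0.157, 0.163 and 0.307 scaled TPM in senescent fibroblasts under DMSO and at 2.20, 2.26 and 2.09 under MG132. It stayed at or under 0.773 scaled TPM in all other groups. Because it passed the filter only through those 3 MG132 libraries, its log2 fold change of 1.4 is a description. Dynlrb1, a roadblock light chain, went from 351, 238 and 284 to 398, 610.0 and 562 scaled TPM in immortalized fibroblasts. These groups did not overlap, and the log2 fold change of 0.84 (SE 0.19, adjusted p = 0.0011) became 0.07 with TPM as deposited. Dynlt3, a Tctex-type light chain, went the other way in proliferating fibroblasts, from 67.8, 69.4 and 51.7 to 37.7, 40.5 and 38.2 scaled TPM (log2 fold change -0.67, SE 0.14, adjusted p = 0.0004).

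The second light intermediate chain gene, Dync1li2, was called in quiescent and immortalized fibroblasts. In immortalized fibroblasts it went from 33.2, 31.2 and 36.6 to 27.9, 22.8 and 26.1 scaled TPM, with no overlap, and fell by 0.38 on the log2 scale (adjusted p = 0.0069). In quiescent fibroblasts it went from 38.1, 31.2 and 39.1 to 38.6, 48.5 and 45.0, an overlapping rise of 0.28 (adjusted p = 0.043) whose call was lost without DMSO replicate 2, MG132 replicate 2 or MG132 replicate 3. Of the remaining subunits, the intermediate chain Dync1i2 fell by 0.30 in proliferating fibroblasts (adjusted p = 0.0095; -0.23 and adjusted p = 0.066 without DMSO replicate 2). The light chain Dynll1 rose by 0.81 in immortalized fibroblasts (adjusted p = 0.0038), which became 0.04 with TPM as deposited.

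Dynactin, the complex that makes dynein processive, split by subunit. Dctn1 encodes p150Glued, its microtubule-binding arm, on chromosome 6 (GRCm38, 83165920 to 83200117, plus strand). In proliferating fibroblasts it went from 70.6, 72.3 and 45.2 scaled TPM under DMSO to 33.7, 36.2 and 29.7 under MG132. In quiescent fibroblasts it went from 59.3, 59.8 and 63.6 to 36.8, 40.1 and 39.8. In immortalized fibroblasts it went from 47.8, 48.8 and 41.3 to 24.7, 29.9 and 25.9. All MG132 libraries of these cell-states lay below all their DMSO libraries. The log2 fold changes were -0.87 (SE 0.14, adjusted p = 5e-05), -0.63 (adjusted p = 0.0011) and -0.75 (adjusted p = 0.00017), and each kept its call without any single library and under both other scalings.

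Senescent fibroblasts differed. Their Dctn1 stood at 46.4, 53.3 and 41.2 scaled TPM under DMSO and at 48.6, 40.9 and 43.3 under MG132, which overlapped (log2 fold change -0.08, adjusted p = 0.68). The senescent response was higher than the proliferating one by 0.79 (adjusted p = 0.01), and the immortalized response minus the senescent one was -0.67 (adjusted p = 0.01).

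Dctn3, the small p24 subunit of the dynactin shoulder, rose in each cell-state. Proliferating fibroblasts went from 52.1, 63.1 and 97.7 to 145, 136 and 142 scaled TPM, and senescent fibroblasts from 82.5, 64.0 and 71.3 to 110.3, 135 and 135. Quiescent fibroblasts went from 60.3, 61.9 and 40.0 to 83.6, 108 and 113, and immortalized fibroblasts from 74.0, 50.2 and 80.2 to 102, 119 and 152. No DMSO library reached the MG132 libraries of its cell-state. The log2 fold changes were 1.03 (SE 0.22, adjusted p = 0.00061), 0.79 (adjusted p = 0.0055), 0.91 (adjusted p = 0.0018) and 0.87 (adjusted p = 0.0023). With TPM as deposited the proliferating value was 0.44 (adjusted p = 0.066) and the immortalized value 0.10, so that only the senescent and quiescent rises were called.

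Among the other dynactin genes, Dctn6, the p27 subunit of the pointed end, went from 79.2, 68.7 and 70.9 to 35.4, 45.5 and 42.5 scaled TPM in immortalized fibroblasts. The groups were far apart, and the gene fell by 0.82 on the log2 scale (SE 0.15, adjusted p = 0.00017). Dctn5, its neighbour at the pointed end, fell by 0.35 in quiescent fibroblasts (adjusted p = 0.0075). Dctn2, the dynamitin shoulder subunit, was higher by 0.32 in proliferating (adjusted p = 0.01) and by 0.33 in immortalized fibroblasts (adjusted p = 0.0078), both of which turned negative with TPM as deposited (-0.27 and -0.44).

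The largest change among the adaptors and regulators belonged to a pair of paralogs, Nde1 and Ndel1, which tie the LIS1 protein to dynein. Nde1 lies on chromosome 16 (GRCm38, 14163275 to 14192928, plus strand). It went from 48.4, 55.0 and 41.2 scaled TPM to 8.86, 10.4 and 11.9 in proliferating fibroblasts. In immortalized fibroblasts it went from 51.5, 85.2 and 50.1 to 11.2, 16.2 and 13.7, and in quiescent fibroblasts from 41.3, 57.0 and 47.6 to 32.3, 20.4 and 24.9. The MG132 libraries were below the DMSO libraries in each of these, by the most in proliferating and immortalized cells. The log2 fold changes were -2.11 (SE 0.23, adjusted p = 4.2e-07), -2.08 (adjusted p = 2.4e-07) and -0.90 (adjusted p = 0.0026). Senescent fibroblasts overlapped, with 41.6, 28.6 and 22.4 under DMSO and 19.0, 24.4 and 20.4 under MG132 (-0.48, adjusted p = 0.088), and passed the test only when DMSO replicate 3 was left out (-0.69, adjusted p = 0.024).

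Ndel1 moved the other way. Proliferating fibroblasts went from 82.8, 81.7 and 126 to 127, 141 and 135 scaled TPM, and senescent fibroblasts from 87.7, 91.8 and 111 to 164, 152 and 150.4. Quiescent fibroblasts went from 80.1, 68.8 and 70.1 to 110.0, 135 and 125, and immortalized fibroblasts from 75.1, 63.7 and 88.2 to 103, 94.0 and 115. The groups did not overlap, though proliferating DMSO replicate 3 nearly met the MG132 libraries. The rises in senescent (0.68, SE 0.15, adjusted p = 0.00086) and quiescent fibroblasts (0.75, adjusted p = 0.00035) kept their sign under all scalings. Those in proliferating (0.50, adjusted p = 0.0091) and immortalized fibroblasts (0.46, adjusted p = 0.013) became -0.10 and -0.31 with TPM as deposited. The proliferating call was also lost without DMSO replicate 1 (0.40, adjusted p = 0.057) or 2 (0.39, adjusted p = 0.062), and the immortalized one without DMSO replicate 2 (0.35, adjusted p = 0.077) or MG132 replicate 3 (0.39, adjusted p = 0.066).

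The share of Nde1 in the sum of both paralogs does not depend on scaling. Under DMSO it was 33.9 ± 8.23% for proliferating, 24.3 ± 7.70% for senescent, 39.9 ± 5.65% for quiescent and 44.7 ± 11.1% for immortalized fibroblasts (mean ± SD, n = 3). Under MG132 it was 7.17 ± 0.838%, 12 ± 1.69%, 17.5 ± 4.87% and 11.7 ± 2.59% in the same order. The ranges of the treatments did not overlap in any cell-state. The scaled TPM of 6 cell cycle markers summed to 131 ± 56.1 under DMSO and 73.9 ± 11.3 under MG132 for proliferating fibroblasts, 23.2 ± 18.1 and 15.6 ± 2.14 for senescent, 149 ± 68.5 and 58.5 ± 35.5 for quiescent, and 441 ± 393 and 255 ± 111 for immortalized ones, and the treatments overlapped in each. In proliferating fibroblasts the overlap rested on DMSO replicate 3. Leaving that library out gave a DMSO mean of 163 (152 to 173), above all MG132 libraries (60.8 to 81.1). The quiescent overlap also rested on single libraries. Without quiescent MG132 replicate 1 the MG132 libraries (32.8 to 43.7) lay below all DMSO libraries (81.4 to 218). Without quiescent DMSO replicate 1 the DMSO libraries (147 to 218) lay above all MG132 libraries (32.8 to 99.1). Without immortalized DMSO replicate 2 the DMSO mean was 214, below the MG132 mean of all libraries. That MG132 mean leaned on replicate 2 in turn, and without it was 190 (189 to 191), below 214. Without senescent DMSO replicate 1 the senescent DMSO mean was 12.8, below the senescent MG132 mean. Of the 6 markers, 1 was called lower in proliferating and 5 in quiescent fibroblasts, and 0 by limma in senescent and in immortalized ones. The part of cell cycling in the Nde1 result was not tested.

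Bicd2, an adaptor of dynein for vesicles and the nuclear envelope, responded in quiescent fibroblasts from a lower starting level. There it went from 21.9, 23.1 and 25.0 to 45.2, 40.3 and 41.9 scaled TPM, with no overlap (log2 fold change 0.84, SE 0.12, adjusted p = 1.4e-05). Senescent fibroblasts went from 39.0, 43.3 and 40.8 to 36.6, 28.8 and 28.7, also without overlap but in the opposite direction (-0.38, adjusted p = 0.014), a call lost without DMSO replicate 2, MG132 replicate 2 or MG132 replicate 3. Proliferating fibroblasts held 54.5, 46.7 and 38.4 under DMSO and 43.5, 41.6 and 40.1 under MG132, and immortalized fibroblasts held 37.0, 43.0 and 32.6 and then 38.5, 41.0 and 37.9. Both pairs overlapped and were not called (-0.14 and 0.07). The quiescent response minus the senescent response was 1.22 (adjusted p = 3.9e-05).

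Of the other adaptors, Hook3, which links dynein to vesicles and centrosomal material, went from 6.42, 5.56 and 6.61 to 3.41, 2.65 and 2.72 scaled TPM in immortalized fibroblasts. That fall of every MG132 library below every DMSO library was a log2 fold change of -0.88 (SE 0.19, adjusted p = 0.00072). Pafah1b1, which encodes LIS1, fell by 0.19 in senescent (adjusted p = 0.045) and by 0.23 in immortalized fibroblasts (adjusted p = 0.014), and both calls were lost in some of the fits that left out 1 library.

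**Figure D2:**
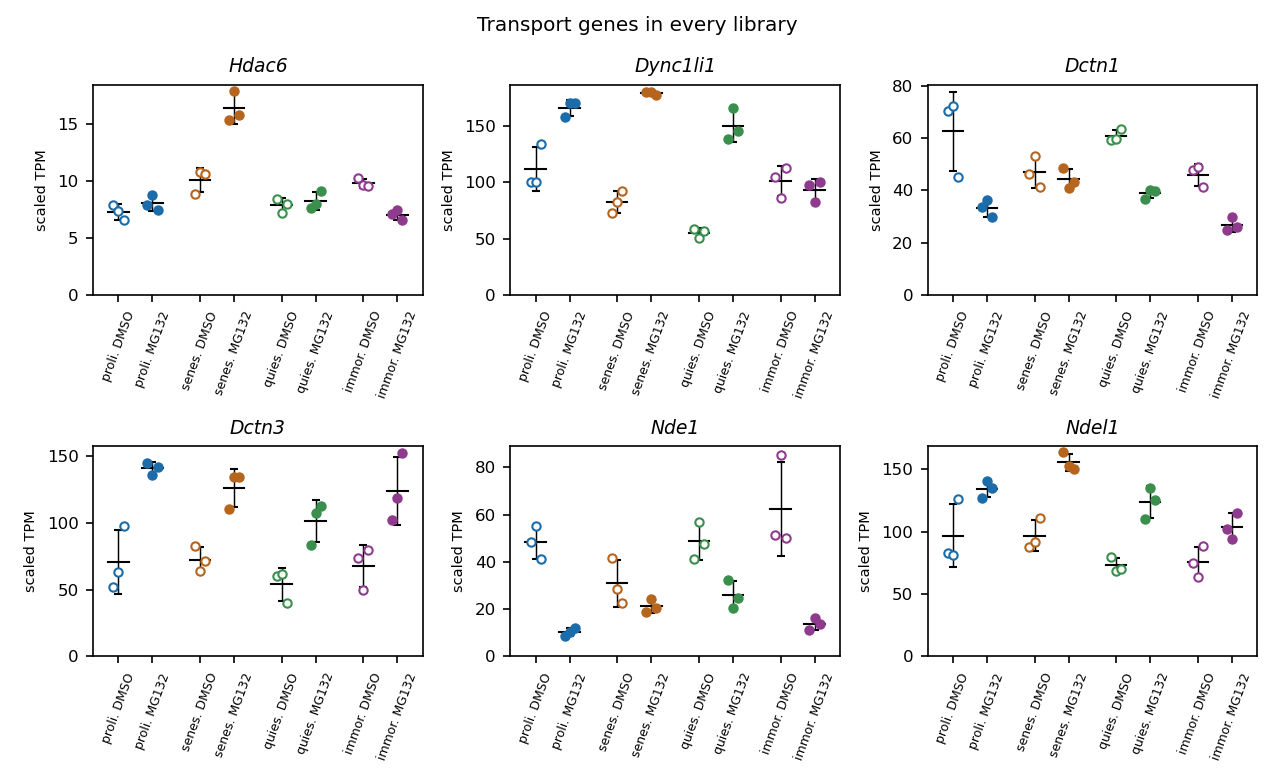
Scaled TPM of selected transport genes in each library by cell-state; open points are DMSO, filled points are MG132, and the line and bar are the mean ± SD of 3 libraries, with axes from 0. Nde1 drops from between 41.2 and 55.0 to between 8.86 and 11.9 in proliferating fibroblasts, whereas the MG132 libraries of Hdac6 lie above the DMSO libraries in senescent and below them in immortalized fibroblasts.

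Promoters are shown for Dctn3 and Ndel1, which rose in all 4 cell-states under the scaling used here. The window runs from 250 bases before to 50 after the RefSeq start on GRCm38.p6, and 27 of the 35 members had an entry. For Ndel1 that start is internal, since the annotated gene on the minus strand spans 68821434 to 68871858. The match in capitals is to the letters TGACNNNGC, the core of the antioxidant response element bound by stress-activated NRF2, searched on both strands.
Dctn3 (chr4:41723114-41723413, minus strand): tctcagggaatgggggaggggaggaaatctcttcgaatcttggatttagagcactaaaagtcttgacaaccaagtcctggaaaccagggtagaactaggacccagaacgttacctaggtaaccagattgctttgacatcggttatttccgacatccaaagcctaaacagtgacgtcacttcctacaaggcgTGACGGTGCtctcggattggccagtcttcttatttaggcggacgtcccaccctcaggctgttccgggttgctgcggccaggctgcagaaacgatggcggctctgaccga
Ndel1 (chr11:68853086-68853385, minus strand): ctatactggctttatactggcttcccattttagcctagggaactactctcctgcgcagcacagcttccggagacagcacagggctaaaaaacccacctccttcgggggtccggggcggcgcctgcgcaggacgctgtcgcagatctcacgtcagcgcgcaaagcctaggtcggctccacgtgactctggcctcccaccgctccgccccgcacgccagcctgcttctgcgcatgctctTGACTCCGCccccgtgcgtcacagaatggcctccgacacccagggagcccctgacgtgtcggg
Members were counted by gene and the background by promoter entry, so their shares differ in unit. The letters were found for 6 of the 27 member genes, Dctn3, Dync1li1, Nde1, Ndel1, Tuba1a and Tuba1c, and in 12.4% of all 32851 promoters. Of the 6, Dctn3, Dync1li1, Ndel1 and Tuba1c rose and Nde1 and Tuba1a fell where they were called. Tubb3, which rose in every cell-state, had no match. The part of these letters in the responses was not tested. The heat shock element, made of alternating GAA and TTC repeats, matched 0 of the 27 member genes and 0.603% of all promoters. The letters CCAAT matched 13 of the 27 and 37.4% of all. A match is a string of letters and not a measured site.

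Alpha-tubulin transcripts changed in make-up. Tuba1a, an isotype abundant in the developing nervous system, was among the most abundant members and fell in senescent and quiescent fibroblasts. Senescent fibroblasts went from 575, 531 and 348 to 189, 166 and 219.7 scaled TPM, and quiescent fibroblasts from 849.6, 1021 and 817 to 388, 507 and 531. Both pairs of groups were well separated, with log2 fold changes of -1.31 (SE 0.25, adjusted p = 0.00029) and -0.92 (adjusted p = 0.0052). Proliferating fibroblasts went from 893, 1115 and 535 to 739, 713 and 532, and immortalized fibroblasts from 690.3, 517 and 459 to 368, 623 and 441. These overlapped and were not called (-0.31, adjusted p = 0.33, and -0.23, adjusted p = 0.47). Without proliferating DMSO replicate 3, the lowest of its group, the proliferating change was -0.61 (adjusted p = 0.042). With TPM as deposited both were called, at -0.91 (adjusted p = 0.0042) and -1.0 (adjusted p = 0.0016).

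Tuba4a, an isotype encoded without the final tyrosine of other alpha-tubulins, rose where Tuba1a fell and in proliferating fibroblasts. In quiescent fibroblasts it went from 46.1, 39.6 and 37.1 to 118, 151 and 137 scaled TPM. In proliferating fibroblasts it went from 58.8, 72.9 and 98.2 to 146, 156 and 156, and in senescent fibroblasts from 109, 110.0 and 113 to 207, 219 and 210.5. Each rise was free of overlap, with log2 fold changes of 1.70 (SE 0.15, adjusted p = 4e-08), 1.01 (adjusted p = 1.7e-05) and 0.93 (adjusted p = 4.8e-05). In immortalized fibroblasts 111, 82.2 and 113 under DMSO overlapped with 105, 107 and 129 under MG132 (0.16, adjusted p = 0.38; -0.60 with TPM as deposited).

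Shares within the alpha-tubulin TPM do not depend on scaling. The share of Tuba1a was 37.6 ± 4.09% and then 22.3 ± 2.99% in senescent fibroblasts, and 46.0 ± 1.56% and then 27.1 ± 4.84% in quiescent ones (mean ± SD, n = 3). The share of Tuba4a was 9.0 ± 2.63% and then 24.8 ± 0.833% in senescent fibroblasts, and 2.13 ± 0.43% and then 7.72 ± 1.16% in quiescent ones. In proliferating fibroblasts Tuba1a held 36.6 ± 6.45% and 30.6 ± 3.57%, which overlapped, and Tuba4a 3.55 ± 1.56% and 7.12 ± 0.683%, which did not. In immortalized fibroblasts both genes overlapped, with 20.2 ± 4.42% and 22.6 ± 1.38% for Tuba1a and 3.83 ± 1.31% and 5.58 ± 1.25% for Tuba4a.

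Tuba1b, the widely expressed isotype, fell in senescent and immortalized fibroblasts. It went from 657, 367 and 255 to 226, 218 and 216 scaled TPM in the former and from 1524, 2161 and 1118 to 693, 1199 and 770.1 in the latter. The immortalized groups overlapped, and senescent DMSO replicate 1 was far above the others of its group. The log2 fold change was -0.84 (SE 0.29) in both (adjusted p = 0.024 and 0.02), and it was -0.48 (adjusted p = 0.18) without senescent DMSO replicate 1 and -0.60 (adjusted p = 0.12) without immortalized DMSO replicate 2. Each call was also lost without either of a pair of MG132 replicates, 2 or 3 in senescent and 1 or 3 in immortalized fibroblasts. Tuba1c, the third gene of the cluster, rose in quiescent fibroblasts from 261, 293 and 250.5 to 556, 494 and 527 (0.97, SE 0.13, adjusted p = 6.4e-06). Its rise in proliferating fibroblasts, from 361, 428 and 523 to 637, 633 and 677 (0.58, adjusted p = 0.001), became -0.02 with TPM as deposited.

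Among beta-tubulins, Tubb3, the class III isotype used as a neuronal marker, rose in every cell-state, and by the most in immortalized fibroblasts. It lies on chromosome 8 (GRCm38, 123411424 to 123422015, plus strand) and shared few sequence words with other genes. Immortalized fibroblasts went from 18.3, 13.0 and 13.8 to 84.4, 90.6 and 95.6 scaled TPM. Proliferating fibroblasts went from 29.5, 29.4 and 37.8 to 91.2, 98.5 and 96.8, and quiescent fibroblasts from 17.7, 14.9 and 15.4 to 34.7, 42.0 and 38. Senescent fibroblasts moved the least, from 19.8 and 20.5, with the third library between these, to 28.4, 25.8 and 25.3. No groups overlapped. The log2 fold changes were 2.52 (SE 0.12, adjusted p = 3.2e-12), 1.55 (adjusted p = 9.1e-09), 1.2 (adjusted p = 1.5e-07) and 0.38 (adjusted p = 0.012) in that order. The senescent call was lost without MG132 replicate 1 (0.33, adjusted p = 0.054) and with the per-million step undone (0.30, adjusted p = 0.11).

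The Tubb3 responses differed between cell-states by test. The immortalized response exceeded the senescent one by 2.14 (adjusted p = 7.8e-09), the quiescent one by 1.31 (adjusted p = 7.7e-06) and the proliferating one by 0.97 (adjusted p = 0.00083). As a share of the beta-tubulin TPM, Tubb3 went from 0.671 ± 0.131% to 4.43 ± 0.638% in immortalized, from 1.51 ± 0.384% to 4.13 ± 0.308% in proliferating, from 1.05 ± 0.155% to 2.08 ± 0.196% in quiescent and from 1.77 ± 0.278% to 2.43 ± 0.113% in senescent fibroblasts (n = 3). By level it stayed a minor isotype.

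Of the 3 most abundant beta-tubulins of immortalized fibroblasts, Tubb5 and Tubb4b fell there and Tubb6 did not. Tubb5, the general isotype, went from 981, 887 and 712 to 397, 602 and 458 scaled TPM, and Tubb4b from 586, 589 and 517 to 276, 374 and 322. Neither gene overlapped between treatments, and the log2 fold changes were -0.83 (SE 0.19, adjusted p = 0.001) and -0.81 (SE 0.13, adjusted p = 4.1e-05). Tubb6 stood at 632, 911 and 497 under DMSO and at 798, 1220 and 902 under MG132, which overlapped (0.54, adjusted p = 0.077; -0.24 with TPM as deposited), and its share of the beta-tubulin TPM went from 29.6 ± 5.90% to 46.8 ± 2.55%. In quiescent fibroblasts Tubb4b went the other way, from 268, 312 and 265 to 399.7, 372 and 408 (0.48, adjusted p = 0.0052), and the immortalized response minus the quiescent one was -1.29 (adjusted p = 3.7e-05). Tubb5 went from 466, 411 and 296 to 280.0, 253 and 279.6 in senescent fibroblasts (-0.50, adjusted p = 0.037), a call lost in 5 of the 6 fits without 1 of these libraries. In proliferating fibroblasts it was not called with all libraries under the scaling used here, but was without DMSO replicate 3 (-0.51, adjusted p = 0.026). The deposited TPM there went from 1088, 1244 and 689 to 570, 576 and 438, without overlap.

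Tubb2b, a neuronal isotype, moved in opposite directions in senescent and quiescent fibroblasts. Senescent fibroblasts went from 47.9, 54.2 and 46.2 to 31.5, 25.8 and 33.4 scaled TPM, and quiescent fibroblasts from 41.1, 41.8 and 41.2 to 51.9, 78.2 and 75.3. The groups did not overlap in either (-0.69, SE 0.18, adjusted p = 0.0044, and 0.69, adjusted p = 0.0042). Proliferating fibroblasts held 101, 111 and 73.9 under DMSO and 93.0, 101 and 74.8 under MG132, and immortalized fibroblasts held 45.5, 27 and 33.9 and then 33.5, 41.1 and 39.7, with overlap in both. Tubb6 rose in quiescent fibroblasts from 197, 303 and 241 to 534, 367 and 417 (0.83, SE 0.25, adjusted p = 0.009), a call lost without DMSO replicate 1 (0.68, adjusted p = 0.05). Tubb2a rose there by 0.73 (adjusted p = 0.039), with overlapping groups and the call lost without any of 4 libraries.

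Tubg1, the gamma-tubulin gene whose product nucleates microtubules at the centrosome, fell in proliferating and immortalized fibroblasts. Immortalized fibroblasts went from 75.5, 86.0 and 64.1 to 41.8, 53.3 and 46.8 scaled TPM, and proliferating fibroblasts from 55.7, 71.3 and 57.9 to 51.1, 40.5 and 36.6. The treatments did not overlap in either, with log2 fold changes of -0.66 (SE 0.17, adjusted p = 0.0026) and -0.52 (adjusted p = 0.014). The proliferating call was lost without DMSO replicate 2 (-0.42, adjusted p = 0.079) or MG132 replicate 3 (-0.42, adjusted p = 0.076). Quiescent fibroblasts went from 53.2, 67.1 and 59.7 to 48.5, 40.8 and 47.1 (-0.39, adjusted p = 0.057), and senescent fibroblasts from 50.6, 33.6 and 30.5 to 42.5, 46.3 and 49.6 (0.30, adjusted p = 0.16). The part of the cell cycle markers, whose sums are given with Nde1, was not tested. Tubg1 shared 19.3% of its sequence words with other genes, 18.2% with Tubg2.

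**Figure D3:**
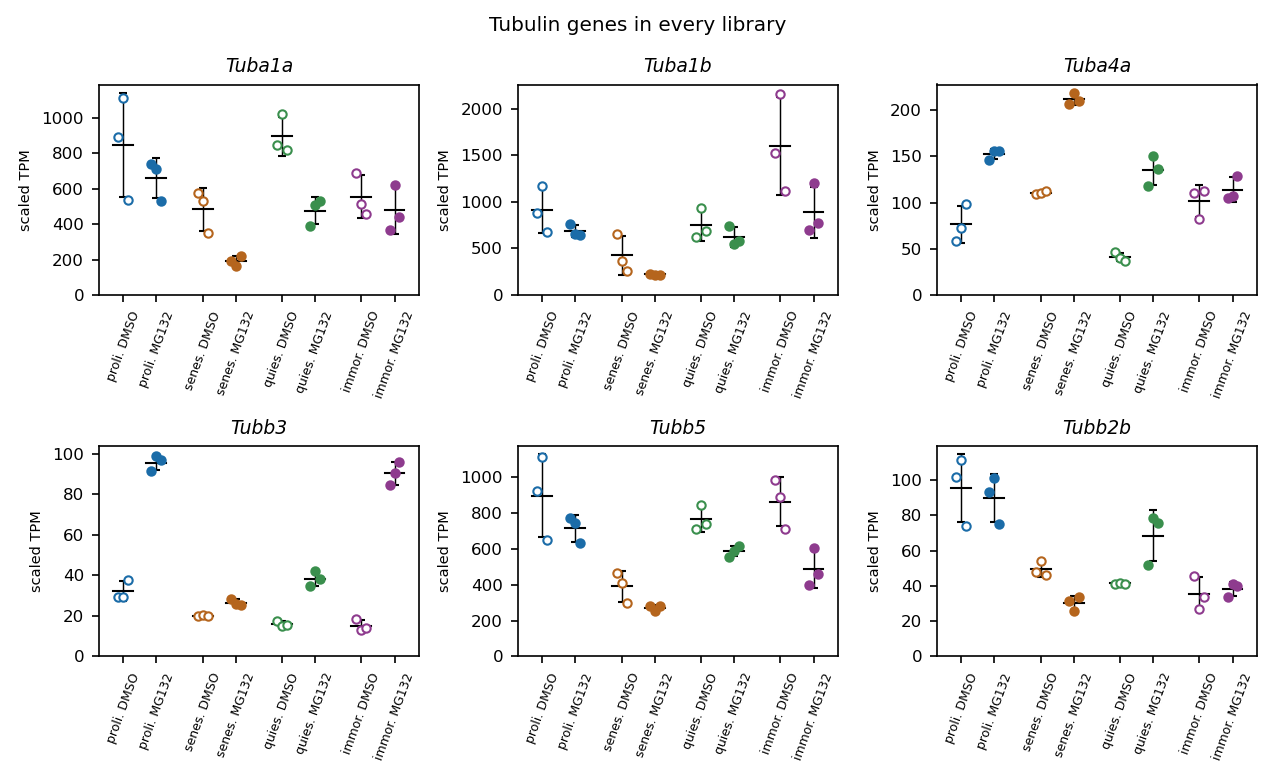
Scaled TPM of selected tubulin genes in each library by cell-state; open points are DMSO, filled points are MG132, and the line and bar are the mean ± SD of 3 libraries, with axes from 0. Tubb3 goes from between 13.0 and 18.3 to between 84.4 and 95.6 in immortalized fibroblasts, while Tuba1a separates the treatments in senescent and quiescent fibroblasts but not in the other cell-states.

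As a share of all TPM, the alpha- and beta-tubulin genes held less of the poly(A) RNA under MG132 in immortalized fibroblasts, with 0.563 ± 0.0697% under DMSO and 0.272 ± 0.0467% under MG132 (n = 3). In proliferating fibroblasts the share was 0.499 ± 0.0934% and 0.330 ± 0.0321%, and in senescent fibroblasts 0.288 ± 0.0463% and 0.228 ± 0.00502%. In quiescent fibroblasts it was 0.426 ± 0.0340% and 0.387 ± 0.0133%. The ranges of the treatments did not overlap in any cell-state, but the quiescent ones nearly met (0.399% and 0.395%). The alpha-tubulin share alone was lower under MG132 in each cell-state, also without overlap. The beta-tubulin share was so only in proliferating and immortalized fibroblasts. It overlapped in senescent fibroblasts, at 0.136 ± 0.0132% and 0.128 ± 0.00418%. In quiescent ones it overlapped with a higher mean under MG132, at 0.188 ± 0.00775% and then 0.198 ± 0.00538%. The 24 transport genes held 0.172 ± 0.00274% and then 0.133 ± 0.00781% in proliferating fibroblasts and 0.167 ± 0.0165% and then 0.119 ± 0.00669% in immortalized ones. In senescent fibroblasts their share was higher under MG132, at 0.225 ± 0.00607% against 0.200 ± 0.00495%, and in quiescent fibroblasts 0.180 ± 0.00618% and 0.173 ± 0.0114% overlapped. The heat shock gene sum averaged 6154 (3665 without DMSO replicate 3) and then 76133 TPM in proliferating fibroblasts. It averaged 4211 and 20864 in senescent ones, 3178 and 16317 in quiescent ones, and 4760 and 75001 TPM in immortalized ones. The immortalized MG132 libraries ranged from 43694 to 93988 TPM. The part of the heat shock genes in these shares of a fixed total was not tested.

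Under DMSO the cell-states already differed in tubulin levels. Senescent fibroblasts held less of most tubulins than proliferating ones: of 33 members 8 were higher and 12 lower, where 21% of all genes were higher and 19.8% lower, and 9 of the 12 were tubulins. A fit of only these libraries gave 2 and 5, where 13% and 11.2% of all genes were, and with the per-million step undone 7 were lower, where 10.5% were. The only tubulin that was higher was Tuba4a (0.55, adjusted p = 0.0062), and Tubb2a was not called (-0.32). Tubb5 stood at 922, 1113 and 650.1 scaled TPM in proliferating and at 466, 411 and 296 in senescent fibroblasts. All senescent libraries were below all proliferating ones, and the log2 difference was -1.18 (SE 0.19, adjusted p = 6e-05). Hook2, an adaptor for centrosomal cargo, was the largest rise, from 4.48, 5.77 and 3.16 to 7.24, 8.03 and 7.77 without overlap (0.69, SE 0.13, adjusted p = 0.00037). Cell cycle markers summed to 23.2 ± 18.1 scaled TPM in senescent and 131 ± 56.1 in proliferating fibroblasts, and their part in these differences was not tested. Without proliferating DMSO replicate 3 the counts were 6 and 11.

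Under the scaling used here, the called differences of quiescent from proliferating fibroblasts went in 1 direction. With TPM as deposited some members were higher, as counted in the closing section. By limma 0 of 33 members were higher and 9 lower, where 15.5% of all genes were higher and 14.7% lower; at an unadjusted p under 0.05 the counts were 1 and 10, and without proliferating DMSO replicate 2, 1 was higher by the adjusted test. The lower members were the tubulins Tuba1c, Tuba4a, Tubb2b, Tubb3, Tubb4b and Tubb6 and the transport genes Dync1li1, Dync1li2 and Bicd2. Tubb2b stood at 101, 111 and 73.9 scaled TPM in proliferating and 41.1, 41.8 and 41.2 in quiescent fibroblasts, with no overlap (-1.16, SE 0.18, adjusted p = 9.1e-05). Dync1li1 was lower by 0.99 on the log2 scale (log2 difference -0.99, adjusted p = 7.9e-06) and Bicd2 by a similar amount (-0.95, adjusted p = 7.9e-06). All 3 of these genes also rose under MG132 in quiescent fibroblasts, but both comparisons share the quiescent DMSO libraries. Cell cycle markers did not separate the states, with 181 ± 78.3 TPM in quiescent and 148 ± 66.9 TPM in proliferating fibroblasts.

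Immortalized fibroblasts, set against proliferating ones, had 7 of 33 members higher and 6 lower, where 18% and 17.7% of all genes were. A fit of only these libraries gave 1 and 2, where 8.05% and 11.6% of all genes were. Tubb2b was the lowest, at 45.5, 27 and 33.9 scaled TPM against 101, 111 and 73.9 (-1.41, adjusted p = 9.7e-06), and Tubb3 was also lower (-1.05, adjusted p = 1.7e-06). Neither overlapped. Tuba1b was the largest rise, with 1524, 2161 and 1118 against 884, 1169.6 and 678, which overlapped (0.80, SE 0.29, adjusted p = 0.04). That call was lost without immortalized DMSO replicate 2 (0.56, adjusted p = 0.21) and without immortalized DMSO replicate 1 or proliferating DMSO replicate 1 or 3. Without proliferating DMSO replicate 1 or immortalized DMSO replicate 1, 4 members were higher. Cell cycle markers summed to 441 ± 393 scaled TPM in immortalized fibroblasts, or 214 without DMSO replicate 2, and their part was not tested.

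Against senescent fibroblasts, immortalized fibroblasts had 7 members higher and 11 lower, where 29.3% of all genes were higher and 30.8% lower. Of these, 6 of the higher members were tubulins and 8 of the lower were transport genes. Tuba1b stood at 657, 367 and 255 scaled TPM in senescent fibroblasts, below every immortalized library (1.97, adjusted p = 1.1e-05). Dynlt3 stood at 91.5, 91.1 and 70.6 in senescent and 49.0, 45.8 and 40.2 in immortalized fibroblasts, again without overlap (-0.89, SE 0.14, adjusted p = 1.5e-05). Without immortalized DMSO replicate 2 the counts were 8 and 4, and the lower members numbered 5 or 6 without senescent DMSO replicate 2 or 3.

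The remaining pairs set quiescent against senescent and immortalized fibroblasts. Against senescent fibroblasts 7 members were higher and 10 lower, where 19.3% and 19.8% of all genes were. Tubb5 was higher in quiescent fibroblasts, at 709, 843 and 739.9 scaled TPM (0.99, adjusted p = 0.00042), and Tuba4a was lower (-1.42, adjusted p = 3.9e-07), neither with overlap. Without senescent DMSO replicate 2 the counts were 4 and 6, and the higher members numbered 2 without senescent DMSO replicate 3 and 3 without quiescent DMSO replicate 2. Immortalized fibroblasts had 9 members higher and 6 lower than quiescent ones, where 25.1% of all genes were in each direction. Tubb6 stood at 632, 911 and 497 in immortalized fibroblasts, above every quiescent library (1.44, SE 0.25, adjusted p = 0.0001). Tubb2a was lower, at 117, 72.7 and 144 against 237, 155 and 167 (-0.77, SE 0.29, adjusted p = 0.031), which was lost without immortalized DMSO replicate 2 (-0.49, adjusted p = 0.2) or quiescent DMSO replicate 1 (-0.58, adjusted p = 0.15). Without immortalized DMSO replicate 2 the counts were 9 and 1, and the lower members numbered 2 without quiescent DMSO replicate 1 and 3 without quiescent DMSO replicate 2 or immortalized DMSO replicate 3.

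**Figure D4:**
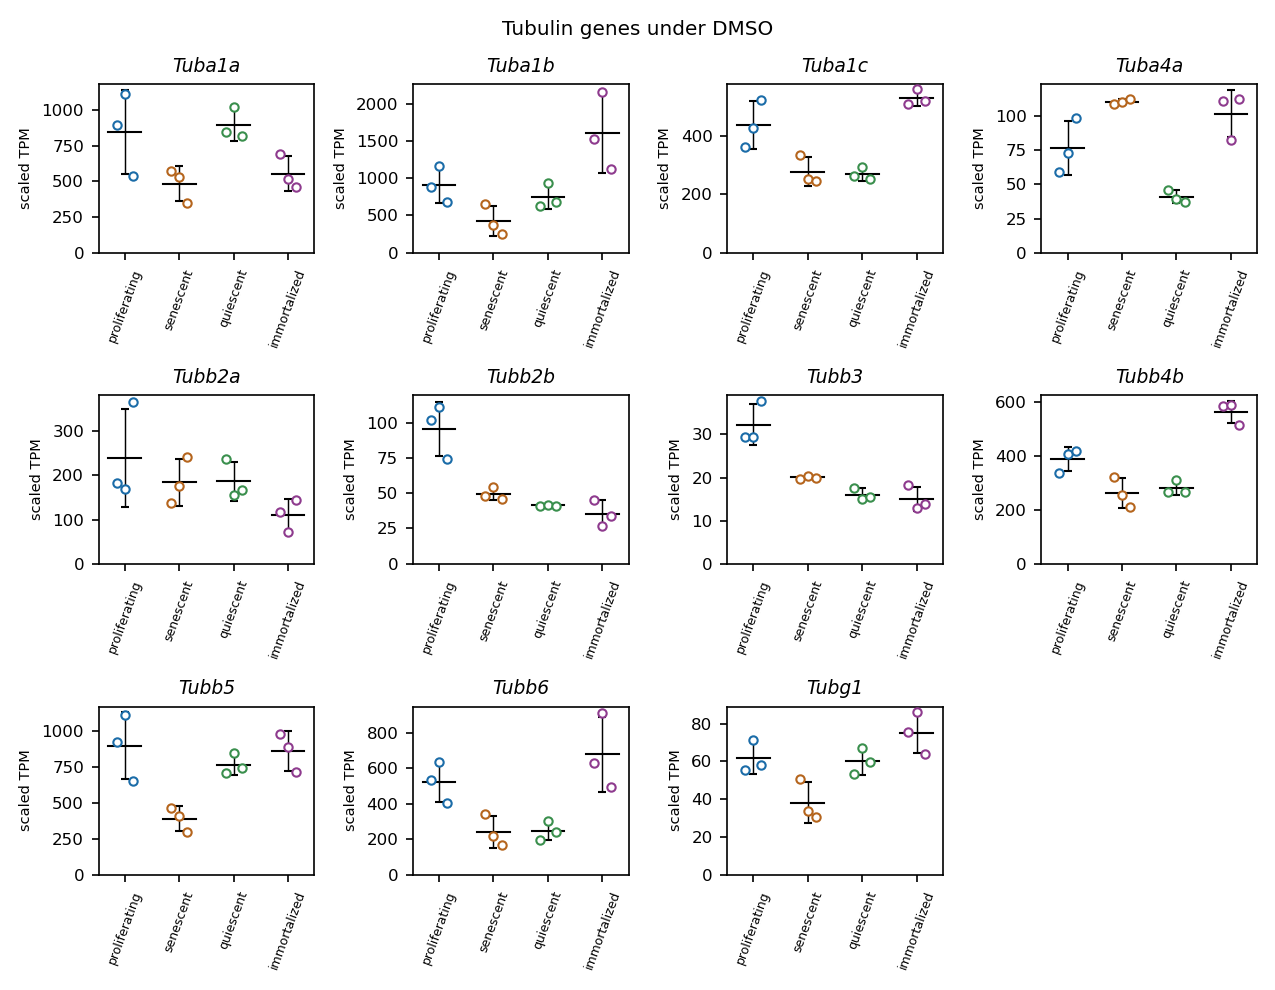
Scaled TPM of the tubulin genes under DMSO in the 4 cell-states, with 1 point per library and the mean ± SD of 3 libraries; axes start at 0. Senescent fibroblasts have the lowest Tubb5, at 296 to 466, and quiescent and immortalized fibroblasts lie below proliferating ones for Tubb2b.

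The study relates these cell-states to whether an aggresome forms under MG132, which groups quiescent with immortalized and proliferating with senescent fibroblasts. The mean response of the former minus that of the latter was called for 6 of 33 members, 4 higher and 2 lower, where 10.4% of all genes were higher and 9.29% lower. The higher members were Tubb3 (0.90, SE 0.12, adjusted p = 2e-05), Tubb2b (0.80, SE 0.18, adjusted p = 0.0044), Bicd2 (0.71, SE 0.12, adjusted p = 0.0003) and Tuba1c (0.42, SE 0.13, adjusted p = 0.027). The lower were Hdac6 (-0.57, SE 0.11, adjusted p = 0.00073) and Dync1i1 (-0.63), whose value is a description, since the gene passed the filter only through its senescent MG132 libraries. The Tuba1c call was lost without quiescent DMSO replicate 3 (0.40, adjusted p = 0.052) or senescent MG132 replicate 3 (0.40, adjusted p = 0.054). It was also lost with TPM as deposited (0.25, adjusted p = 0.079) and with the per-million step undone (0.36, adjusted p = 0.10).

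A member set apart by this grouping would differ in each of the 4 pairs of a quiescent or immortalized with a proliferating or senescent response. By limma 0 of 33 members did so in 1 direction, where 0.727% of all genes were higher and 0.185% lower in all 4 pairs. At an unadjusted p under 0.05 it was again 0 members, with 1.55% and 0.727% of all genes, so that a count of 0 is near the background. For Tubb3 the proliferating response of 1.55 exceeded the quiescent response of 1.2, and for Hdac6 the proliferating and quiescent responses were 0.13 and 0.06.

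Pairwise, the responses of members were compared by their differences. The immortalized minus senescent difference was called for 6 members higher and 11 lower, where 18.8% and 19.6% of all genes were. The immortalized minus quiescent difference was called for 4 and 11, where 15.6% of all genes were in each direction. Senescent minus proliferating gave 8 and 2 members, against 8.64% and 10.2% of all genes. Quiescent minus proliferating gave 5 and 0 by limma, with 7 and 1 at an unadjusted p under 0.05, against 6.87% and 6.19%. Immortalized minus proliferating gave 1 and 4, against 6.09% and 5.46%, and quiescent minus senescent gave 6 and 3, against 11.2% and 9.19%. Called in either direction, senescent minus proliferating had 6 members without senescent MG132 replicate 3, and quiescent minus proliferating had 3 without any of the 3 proliferating MG132 libraries, quiescent DMSO replicate 2, or quiescent MG132 replicate 2 or 3. Tuba4a responded less in immortalized than in quiescent fibroblasts (-1.54, adjusted p = 2.1e-05), as did Dync1li2 (-0.66, adjusted p = 0.0035).

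Other genes of the same pathways were counted from hand-made lists. Of 12 tubulin folding cofactor genes, which build the tubulin dimer, proliferating fibroblasts had 8 rises and 1 fall, senescent ones 1 and 1, quiescent ones 4 rises, and immortalized ones 5 and 1, to be read against the shares of all genes given with the members' counts. With TPM as deposited they were 1 and 2, 1 and 2, 2 and 1, and 1 and 5. Tbce rose by 0.89 in proliferating (adjusted p = 9.2e-06) and by 1.08 in immortalized fibroblasts, while Tbcd fell by 0.63 (adjusted p = 0.00028) and by 0.73. Of 13 genes that modify tubulin or read out its free level, rises and falls numbered 4 and 5, 4 and 3, 4 and 3, and 2 and 5 in the same order, and with TPM as deposited 8 fell in proliferating and all 13 in immortalized fibroblasts, where 53.2% and 56.5% of all genes did. Agbl5, an enzyme that removes glutamates from tubulin, fell by 1.32, 1.53, 1.62 and 1.66. Ttc5, which recognises the first residues of nascent tubulin chains and starts the decay of their mRNAs, fell by 0.77 in proliferating, by 0.50 in quiescent and by 1.37 in immortalized fibroblasts and was at 0.20 in senescent fibroblasts (adjusted p = 0.16). The values for Ttc5 outside immortalized fibroblasts were chosen after they were seen.

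Of 17 kinesin genes, whose motors carry cargo mostly toward the plus ends, rises and falls numbered 1 and 7, 3 and 3, 6 and 3, and 2 and 8 in that order. Here and for the lists that follow, all-gene shares were 25.2% and 24.8%, 22.7% and 23.4%, 25.3% and 26.9%, and 26.6% each way. Kif3c rose by 0.94, 0.64 and 0.81 in proliferating, senescent and quiescent fibroblasts, and its value of 0.44 in immortalized fibroblasts became -0.28 with TPM as deposited. Of 11 further dynein adaptor genes, the counts were 1 and 2, 3 and 2, 1 and 2, and 1 and 3, and Def6, known as an exchange factor of immune cells, fell by 1.07, 1.46, 0.76 and 1.54. Of 8 genes of the gamma-tubulin complex, the counts were 1 and 2, 3 and 1, and 2 and 1, with 3 falls in immortalized fibroblasts. Of 20 microtubule-associated protein genes, the counts were 3 and 7, 6 and 4, 4 and 3, and 3 and 8. Of 10 further dynein and dynactin genes, 3 rose in senescent and 2 in quiescent fibroblasts, among them Actr1a, the filament subunit of dynactin (0.39 and 0.32). The kinesin, microtubule-associated protein and gamma-tubulin complex lists gave with TPM as deposited 10 of 17, 14 of 20 and 7 of 8 falls in proliferating and 12, 13 and 8 in immortalized fibroblasts. The further adaptors and the further dynein and dynactin genes gave 6 of 11 and 9 of 10 falls in the former and 9 and 10 in the latter. Under that scaling 53.2% and 56.5% of all genes fell there.

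The scaling of the libraries set much of the balance between rises and falls. With TPM as deposited the median of all genes was -0.48 for proliferating, -0.05 for senescent, -0.18 for quiescent and -0.57 for immortalized fibroblasts, and that of the members was -0.62, 0.03, -0.09 and -0.74. The counts of members that rose and fell were then 2 and 21 in proliferating fibroblasts, where 8.38% of all genes rose and 53.2% fell, and 1 and 24 in immortalized fibroblasts, where 7.64% rose and 56.5% fell. Tubb3 was the highest and Nde1 the lowest in proliferating and immortalized fibroblasts under every scaling. The called changes of Dctn1, Nde1, Tuba4a, Tubb3 and Tubb5 kept their direction, whereas small rises in proliferating and immortalized fibroblasts, such as those of Dctn2 and Ndel1, did not.

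**Figure D5:**
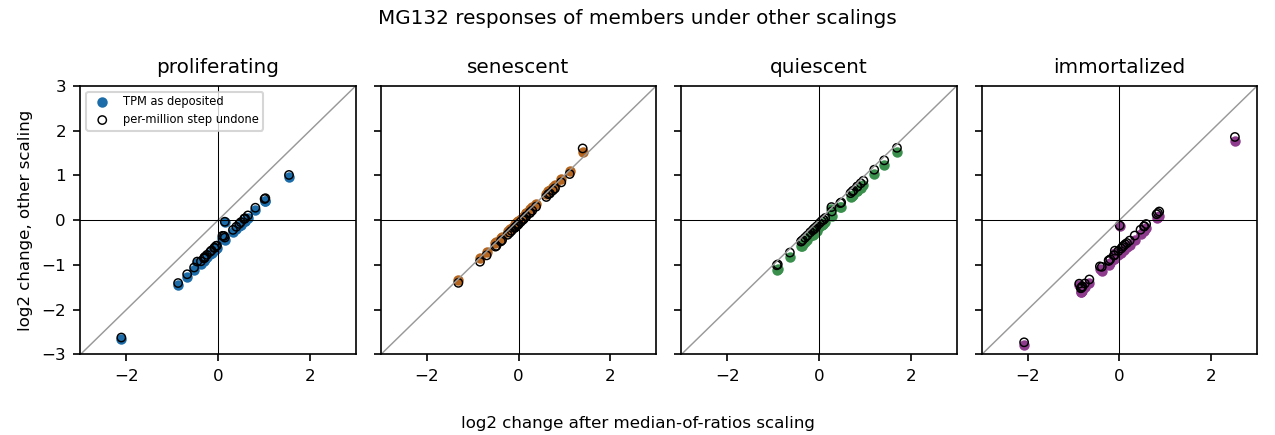
Log2 fold change of MG132 over DMSO for each tested member in the 4 cell-states, with the value under the size factors on the x axis and under another scaling on the y axis; filled points are TPM as deposited, open black points have the per-million step undone, and the grey line marks equality. The median distance of the points from the line with TPM as deposited is -0.59 in proliferating, -0.76 in immortalized, -0.18 in quiescent and -0.01 in senescent fibroblasts.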

How the data were processed

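Poly(A) RNA of 24 fibroblast libraries, 3 in each of 8 groups, was analysed from a table of 19880 genes. The authors deposited TPM. Their methods describe trimming with Cutadapt, mapping with kallisto to GRCm38 transcripts with ERCC spike-ins, RUVg normalization, and division by gene length, whereas HISAT2, StringTie and edgeR appear with cutadapt and FastQC in the submitters' processing notes, without versions. The sources used here do not settle between them. TPM keeps no depth, so the depth of the libraries is unknown and no counting interval is given. The libraries held 16751 to 18161 genes above 0 and 0 ERCC rows, and 0 value columns were left without a sample.

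Size factors were computed as the median of ratios to the geometric mean over the 13243 genes above 0 in all libraries, and TPM was divided by them. The study added ERCC RNA by cell number and normalized to it, so that changes in total RNA per cell could be followed. The size factors used here do not keep such changes. Whether undoing the per-million step, given among the alternative settings, returns levels per cell was not tested. After log2 transformation with a pseudocount of 1, linear models were fitted by limma 3.58.1 (R 4.3.3, trended variance). The fit included 13489 genes reaching 1 TPM in 3 or more libraries, with 1 coefficient per group, 16 residual degrees of freedom and no replicate term. Benjamini-Hochberg adjustment was applied to the p-values of a comparison over all genes, and the threshold was 0.05. Comparisons covered MG132 versus DMSO by cell-state, DMSO versus DMSO for every pair of cell-states, differences between the responses of a pair, and the averaged quiescent and immortalized response less the averaged proliferating and senescent response. The script was tested on simulated data. Plots used matplotlib 3.10.9 (Python 3.11.15).

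The members and gene lists were chosen with earlier results of these data known. Values in every library are given for Hdac6, Dync1h1, Dctn1, Tuba1a and Tubg1, for the 3 largest called rises and falls among members in each MG132 response, for the 3 largest called members of the contrast of cell-states, and for the largest called member in each direction under DMSO. Other lists name up to 2 genes in each direction. Members named beyond that were chosen after their values were seen. Alternative settings were unscaled TPM, undoing the per-million step, a pseudocount of 0.1 or 5, omitting the filter or raising it to 5 TPM, fitting only the libraries compared, a replicate block, array weights, and leaving out each library. For 93.6% of 6615 genes with low values these were whole multiples of 1 step, within 0.02, and the ratio of steps between libraries was used to undo the per-million step. Tubulin coding starts are from GENCODE transcripts and promoters from RefSeq, both of GRCm38.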

Additional observations from a re-analysis of the deposited data

Results flagged for a closer look

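The responses of Hdac6, Nde1, Tubb3 and 6 other members to MG132 differed between cell-states by a test of the difference itself (limma, Benjamini-Hochberg adjustment). More members differed, as counted for each pair above. Flagged here are those called in the contrast of cell-states and those called in opposite directions in a pair. The largest called difference in each direction of a pair is also included. All values here are differences of log2 fold changes.

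The mean response of quiescent and immortalized fibroblasts minus that of proliferating and senescent fibroblasts was 0.90 for Tubb3, 0.80 for Tubb2b, 0.71 for Bicd2 and 0.42 for Tuba1c. It was -0.57 for Hdac6 and -0.63 for Dync1i1, which passed the filter only through its senescent MG132 libraries, so that its values here are descriptions. The Tuba1c call was lost in 2 fits without 1 library and under both other scalings.

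Nde1 fell less in senescent than in proliferating fibroblasts (1.63, adjusted p = 0.0013), less in quiescent than in proliferating fibroblasts (1.21, adjusted p = 0.016), and more in immortalized than in senescent fibroblasts (-1.60, adjusted p = 0.00055). Its senescent fall was not itself called.

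Tubb3 rose less in senescent than in proliferating fibroblasts (-1.16, adjusted p = 7.4e-05). Its rise in immortalized fibroblasts exceeded that in proliferating (0.97, adjusted p = 0.00083), senescent (2.14, adjusted p = 7.8e-09) and quiescent fibroblasts (1.31, adjusted p = 7.7e-06). Tuba4a rose in the other cell-states and was not called in immortalized fibroblasts, where its response was lower than in proliferating (-0.85, adjusted p = 0.013) and quiescent fibroblasts (-1.54, adjusted p = 2.1e-05).

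Hdac6 rose in senescent and fell in immortalized fibroblasts (-1.08, adjusted p = 1.5e-05). Bicd2 and Tubb2b rose in quiescent and fell in senescent fibroblasts (1.22, adjusted p = 3.9e-05, and 1.38, adjusted p = 0.00079). For Dync1i1 the quiescent minus the senescent response was -1.13, with no test for the reason given. Tubb4b and Dync1li2 rose in quiescent and fell in immortalized fibroblasts (-1.29, adjusted p = 3.7e-05, and -0.66, adjusted p = 0.0035). Each of the tested differences between a single pair of cell-states, which leave out Dync1i1, kept its call without any single library and its sign under both other scalings.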

How the results depend on the processing

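Scaling had the widest effect. With TPM as deposited, members that rose and fell numbered 2 and 21 in proliferating and 1 and 24 in immortalized fibroblasts, 10 fell in quiescent fibroblasts, 2 were higher in quiescent than in proliferating fibroblasts under DMSO, and responses differed for 18 members between senescent and proliferating and 15 between quiescent and proliferating fibroblasts. Of all genes, 8.38% and 53.2% rose and fell in proliferating, 7.64% and 56.5% in immortalized, and 35.4% fell in quiescent fibroblasts, 21.5% were higher in quiescent than in proliferating ones, and the responses differed for 44% and 27.6%. The log2 fold change turned negative for Dctn2 (-0.27) and Ndel1 (-0.10), and fell to about 0 for Dync1li1 (-0.0132), Dynll1 (-0.0284) and Tuba1c (-0.0166), in proliferating fibroblasts, and was negative for Dctn2 (-0.44) and Ndel1 (-0.31) in immortalized ones. Undoing the per-million step, the counts were 2 and 19 in proliferating and 1 and 24 in immortalized fibroblasts, against 8.5% and 49%, and 8.5% and 52.3%, of all genes. Under DMSO 7 members were lower in senescent than in proliferating, 3 higher and 17 lower in quiescent than in senescent, and 2 lower in immortalized than in quiescent fibroblasts, against 10.5%, 11%, 27.6% and 22.5% of all genes. Responses of senescent and of quiescent fibroblasts each differed from those of proliferating ones for 16 members, against 33.1% and 27% of all genes. Dctn2 (-0.22) and Ndel1 (-0.0445) in proliferating and Dctn2 (-0.34) and Ndel1 (-0.21) in immortalized fibroblasts were again negative.

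Array weights gave 10 falls in proliferating and 7 in quiescent fibroblasts, and 11, 14 and 11 called differences for quiescent minus proliferating, quiescent minus senescent and the contrast of cell-states, against 31.8%, 33.5%, 26.5%, 38.8% and 35.2% of all genes. Fits of only the libraries compared gave 2 falls in senescent fibroblasts, against 20.7% of all genes. Under DMSO they gave 2 members higher and 5 lower in senescent and 1 higher and 2 lower in immortalized than in proliferating fibroblasts, 3 higher in quiescent than in senescent and 2 lower in immortalized than in senescent fibroblasts, against 13%, 11.2%, 8.05%, 11.6%, 15.3% and 24.6% of all genes. Differences of response from proliferating fibroblasts then numbered 6 for senescent, 3 for quiescent and 2 for immortalized fibroblasts, against 14.1%, 11.3% and 7.34%.

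With each library left out in turn, falls numbered 3 to 7 in proliferating and 2 to 6 in senescent fibroblasts, where rises numbered 5 to 9. Differences of response from proliferating fibroblasts numbered 6 to 11 for senescent and 3 to 6 for quiescent fibroblasts. Under DMSO 4 to 6 members were higher in immortalized and 0 to 1 in quiescent than in proliferating fibroblasts, 1 to 4 were lower in immortalized than in quiescent and 4 to 10 lower in immortalized than in senescent, and 2 to 7 were higher and 6 to 10 lower in quiescent than in senescent fibroblasts. Of 174 gene results past the threshold, 57 were lost when 1 library was left out, 25 were lost or reversed with TPM as deposited and 33 with the per-million step undone; the cause was not tested.

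Replicate numbers were not used to pair the samples. Of 12 same-numbered pairs of libraries within a cell-state, 3 had deviations that correlated above 0.1, with a range from -0.66 to 0.40. Over all groups 35 of 84 same-numbered pairs did, with a range from -0.66 to 0.57. Such correlations cannot show whether same-numbered libraries were prepared together. With the replicate number as a block, 10 members rose and 5 fell in proliferating fibroblasts and 5 fell in senescent fibroblasts, against 24.9%, 25.0% and 23.5% of all genes. The depth behind each TPM is unknown, and levels of tubulins that share sequence depend on how reads were divided.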
